A study of Sorghum bicolor with 34 samples.

Results

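The CHH sites described here are all 13408 cytosines that the authors listed in the CHH context as differentially methylated between roots of BTx623 sorghum grown with limiting phosphorus (LP) and with sufficient phosphorus (SP). They made up 9.19% of the 145883 cytosines listed over the 3 sequence contexts, beside 28213 CHG sites and 104262 CG sites. In these names H stands for A, C or T, so that a CHH cytosine is followed by no G at the next 2 bases, and every row of the list was taken without further selection. BTx623 is the inbred line of the sorghum reference genome, and seedlings of this line alone were grown in hydroponic solution with 45 μM (SP) or 2.5 μM (LP) phosphate. According to the methods, all seedlings began in SP solution, and those for LP were then moved. The LP solution held slightly more potassium chloride, to keep potassium equal. No other treatment was named. After 10 days the first 2 cm of the primary and lateral roots were collected according to the methods, whereas the sample labels name the whole root. Bisulfite sequencing was made from 2 libraries for each phosphorus level, each from the pooled roots of 10 plants. The list pools these 4 libraries and gives a position and a strand for each site, with no value per library, so that no site could be compared between replicates.

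Cytosine methylation in plants is maintained by a separate route in each context. In Arabidopsis the methyltransferase MET1 copies CG methylation after replication, CMT3 maintains CHG methylation together with histone H3 lysine 9 methylation, and CHH methylation is set again in each cell cycle by DRM2, which is guided by small RNAs, and by CMT2, which acts in heterochromatin. A CHH site has no partner cytosine on the opposite strand, whereas CG and CHG sites are symmetric. In grasses CHH methylation is low over most of the genome and is concentrated on transposons, including those close to genes, and the chromosomes of sorghum have gene-rich arms on either side of a repeat-rich pericentromere.

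As a check of the lists only, the positions were first set against the CHH label, because the bases after a CHH cytosine forbid certain neighbours. Neither of the 2 bases after a CHH cytosine is a G, so neither can pair with a cytosine, and no listed site of any context can lie on the opposite strand 1 or 2 bp on the 3′ side of a CHH site. None of the 13408 sites had such a neighbour in any of the 3 lists. At 3 bp on the 3′ side, where the rule no longer holds, 8 CHH (4 pairs, each counted from both ends), 1 CHG and 6 CG sites were found on the opposite strand. Counts were also low at other distances that the rule allows. At 1 bp on the 5′ side, 0 CHH, 2 CHG and 2 CG sites lay on the opposite strand. The absence of forbidden neighbours is therefore a weak check. A CG site cannot follow directly on the same strand either, since its G would be the second base after the CHH cytosine. None of the CHH sites had a CG site 1 bp downstream on its strand, whereas 7 had one at 2 bp. No position was listed more than once or in more than one context. On the 5′ side of a CHH site on its own strand, a CHG site at 1 or 2 bp or a CG site at 1 bp would need a G at the CHH cytosine itself or at its next base, and none was listed.

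All 10 chromosomes carried listed CHH sites, but in unequal number. Chromosome 5 held the most, with 1867 sites, and chromosome 6 the fewest, with 549. Since the chromosomes differ in length, the counts were divided by the extent of each chromosome, taken as the highest position listed in any context. On this scale the density of listed CHH sites was 26.6 per Mb on chromosome 10, 26.0 on chromosome 5, 25.01 on chromosome 9, 22.6 on chromosome 1, 21.6 on chromosome 8 and 19.4 on chromosome 7. The other 4 chromosomes were lower, with 16.8 per Mb on chromosome 4, 15.9 on chromosome 3, 13.0 on chromosome 2 and 8.96 on chromosome 6. The mean over the 10 chromosomes was 19.5 listed CHH sites per Mb, against 40.0 for CHG and 151.0 for CG. The number of CG sites listed for each CHH site ran from 3.83 on chromosome 5 to 12.9 on chromosome 6, and that of CHG sites from 1.17 on chromosome 10 to 3.03 on chromosome 2. A further 82 CHH sites (0.612%) lay on 48 unplaced scaffolds. These densities count listed sites and not all cytosines read, because coverage is not part of the lists.

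In bins of 1 Mb, of which the chromosomes made 688, the median bin held 18 CHH sites, with lower and upper quartiles of 6 and 30. The densest 10% of the bins (69) held 3276 of the 13326 CHH sites on chromosomes, or 24.6% (exact 95% binomial interval 23.9 to 25.3%, for counting error only), against 29.7% for CHG and 24.6% for CG in their own densest bins. The densest CHH bin lay on chromosome 5 between 39 and 40 Mb and held 95 sites, of which 49 were on the plus strand, but only 34 CHG and 76 CG sites. The next densest bin was on the same chromosome between 21 and 22 Mb, with 65 CHH, 14 CHG and 90 CG sites. Chromosome 10 followed, with 61 CHH sites between 40 and 41 Mb and 60 between 33 and 34 Mb, where 13 and 28 CHG sites and 41 and 84 CG sites were listed. Of the 10 densest bins, 4 lay on chromosome 5, 4 on chromosome 10 and 2 on chromosome 8. The median bin of the genome held 30.5 CHG and 119.5 CG sites, so that the densest CHH bins of chromosomes 5 and 10 just named were below the median for CG and, apart from the first, below it for CHG. The others of the 10 differed. On chromosome 8 the bin from 8 to 9 Mb, with 47 CHG and 134 CG sites, was above both medians. The bins at 26 to 27 Mb on chromosome 5 and 42 to 43 Mb on chromosome 8 were above it for CHG only, with 48 and 40 sites. Those at 22 to 23 Mb on chromosome 5 and at 25 to 26 and 41 to 42 Mb on chromosome 10 were below both.

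The position of CHH sites along the chromosome differed from one chromosome to another. The middle of each chromosome, here the stretch from 30 to 70% of its extent, held 55.1% of the CHH sites of chromosome 10, 51.8% of those of chromosome 5, 46.2% on chromosome 7, 45.8% on chromosome 9 and 42.5% on chromosome 1. The share was 28.1% on chromosome 8, 27.3% on chromosome 6, 25.4% on chromosome 4 and 14.3% on chromosome 3, and only 3.16% on chromosome 2, where 32 of 1012 sites lay in the middle. The other contexts varied less, with 22.2 to 31.2% of CHG sites and 13.4 to 19.8% of CG sites in the same stretch of the 10 chromosomes. CG sites were listed more toward the chromosome ends, since the first and the last 10% of a chromosome together held 29.7 to 43.7% of its CG sites, against 15.96 to 28.7% of its CHH sites.

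**Figure D1:**
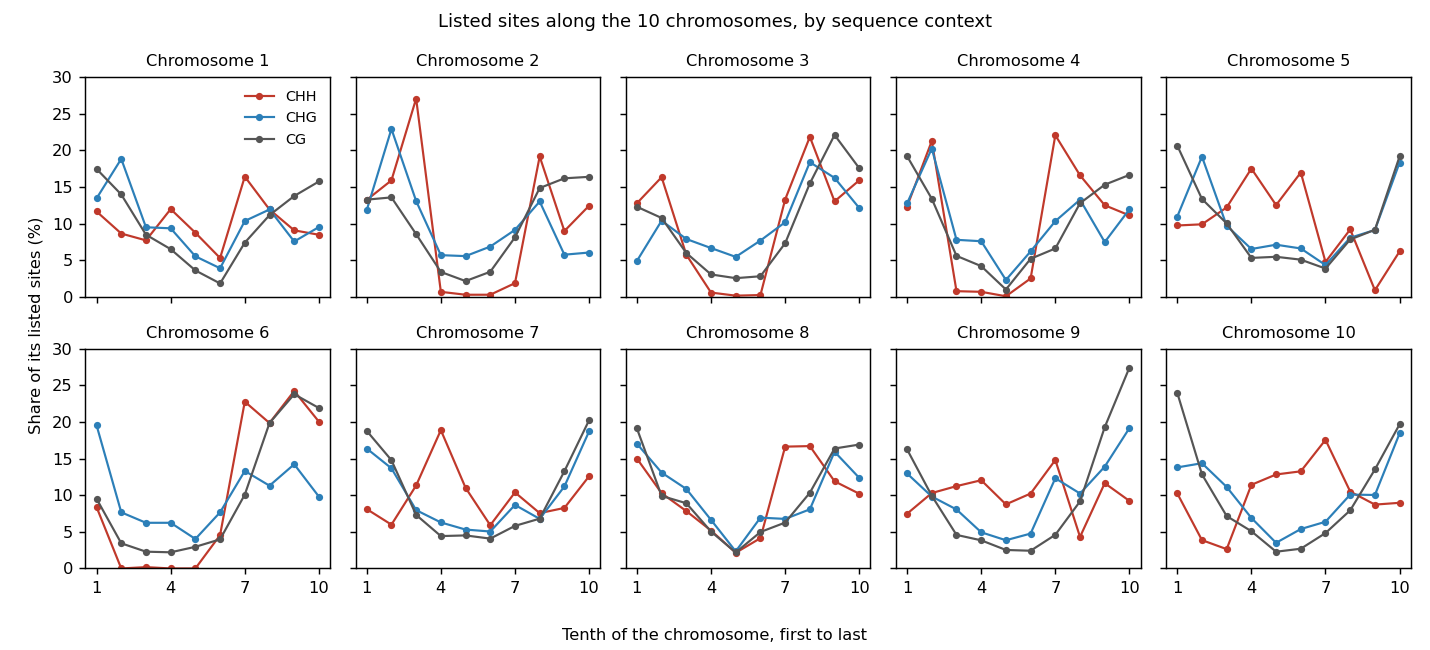
Share of each chromosome's listed sites (%, y axis) in steps of 10% of its extent (x axis, 1 to 10) for CHH (red), CHG (blue) and CG (grey), one panel for each of the 10 chromosomes. The CG and CHG lines dip toward the middle of the chromosomes, whereas chromosomes 5, 7, 9 and 10 have 45.8% or more of their CHH sites in steps 4 to 7, and the CHH line of chromosomes 2, 3, 4 and 6 lies close to 0 over at least 3 neighbouring steps.

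Chromosomes 2, 3, 4 and 6, which had the lowest counts, each held a long stretch that was almost empty of CHH sites. Of the 93 bins without a CHH site, 17 held no site of any context, while the other 76 held CHG or CG sites. No bin that lacked CHG or CG sites held any site of another context. To describe these stretches, runs of at least 5 neighbouring bins with at most 3 CHH sites each were collected, a rule chosen after the counts had been seen, so that their low CHH counts are a description. This gave 5 runs of 110 Mb in all, or 16.1% of the chromosomes, which held 59 CHH sites (0.443%) and 70 of the 76 bins that were empty of CHH alone. The numbers of CHG and of CG sites inside were not used to choose the runs.

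The longest runs were on chromosomes 2 and 6. On chromosome 6, from 3 to 31 Mb, a single CHH site was listed, at position 14486827, among 470 CHG and 1003 CG sites, and 27 of the 28 bins held no CHH site, while every bin held at least 4 CHG and 6 CG sites. The 2 gaps on either side of this site, of 11.6 and 17.0 Mb, were the longest between neighbouring CHH sites in the genome. On chromosome 2, from 24 to 52 Mb, 19 CHH sites stood beside 710 CHG and 1662 CG sites. On chromosome 3, from 23 to 45 Mb, 9 CHH sites stood beside 708 CHG and 1190 CG sites, and the next bin, from 45 to 46 Mb, again held 18 CHH sites. On chromosome 4, from 14 to 40 Mb, there were 23 CHH, 576 CHG and 1555 CG sites, and the bins at its edges held 29 CHH sites before and 18 after the run. The fifth run, on chromosome 5 from 58 to 64 Mb, was short and held 7 CHH, 224 CHG and 547 CG sites in 6 bins. Other edges were less sharp than those of chromosome 4. The bins before and after the run held 9 and 8 CHH sites on chromosome 2, 14 and 9 on chromosome 5, and 5 and 13 on chromosome 6. The bin before the run of chromosome 3 held 4.

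Set against the rest of the same chromosome, listed CHH sites stood at 0.679 per Mb in the run and 19.96 per Mb elsewhere on chromosome 2, at 0.409 and 22.4 on chromosome 3, at 0.885 and 26.4 on chromosome 4, at 1.17 and 28.2 on chromosome 5 and at 0.0357 and 16.5 on chromosome 6. CHG sites were lower in the same runs by 1.87, 1.60, 2.13, 1.02 and 1.92 times, and CG sites by 3.73, 4.45, 3.70, 1.10 and 5.09 times. Over the 5 runs together, 24.4 CHG and 54.2 CG sites per Mb were listed, against 43.0 and 169.5 per Mb elsewhere, and 0.536 CHH sites against 23.1. Outside the runs the chromosomes were more alike, with 16.5 listed CHH sites per Mb on chromosome 6, still the lowest of the 10, to 28.2 on chromosome 5. This likeness follows in part from the choice of the runs by their low CHH counts. Whether CHH cytosines in the runs were not read, were not methylated or did not differ between LP and SP, or whether the list used here is incomplete in these stretches, cannot be told apart from lists that hold only the sites that passed. The same limit holds for the low counts of chromosomes 2, 3, 4 and 6.

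**Figure D2:**
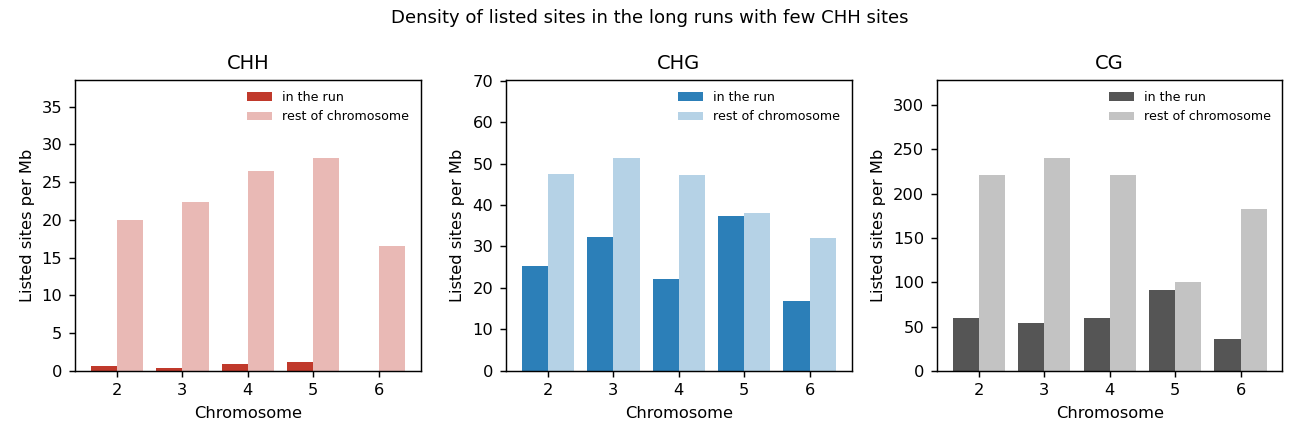
Listed sites per Mb (y axis, from 0) in the long run with few CHH sites (dark bars) and in the rest of the same chromosome (pale bars) for chromosomes 2 to 6 (x axis), one panel for each context. CHH density was 1.17 per Mb or less in all 5 runs, while CHG density in them was 16.8 to 37.3 per Mb and CG density 35.8 to 91.2 per Mb.

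A second kind of gap was shared by all contexts. On chromosomes 1, 5, 7, 8, 9 and 10, each of which had at least 1 bin without a site of any context, the largest gap between neighbouring CHH sites was 2.25 to 4.94 Mb long and held no more than 11 CHG and 19 CG sites. The longest of them, on chromosome 1, ran from position 40765148 to 45703576 with 6 CHG and 14 CG sites inside. On chromosomes 2, 3, 4 and 6, by contrast, the largest CHH gap held 56 to 239 CHG sites and 112 to 513 CG sites. The gap on chromosome 4 also contained a stretch empty in every context, from 29 to 32 Mb, which lies inside its run and made up 3 of the 17 bins without any site. The others lay on chromosomes 1, 5, 7, 8, 9 and 10.

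Across the 688 bins the CHH count correlated with the CHG count at Pearson r = 0.20 (Spearman rho = 0.29) and with the CG count at r = 0.23 (rho = 0.34), while CHG and CG correlated at r = 0.46 (rho = 0.60). These values are a description, since neighbouring bins are not independent and all lists share the same libraries and the same mappable sequence. In the 578 bins outside the 5 runs the correlation of CHH with CG was 0.02 (rho = 0.06) and that with CHG 0.11 (rho = 0.15), while CHG with CG was 0.42. The runs were chosen for their low CHH counts, so leaving them out narrows the range of the CHH count. Lower correlations with CHH can follow from this choice alone. Within chromosomes the correlation of CHH with CG was between −0.14 and 0.13 on chromosomes 1, 5, 7, 9 and 10, 0.39 on chromosome 8 and 0.49 to 0.79 on chromosomes 2, 3, 4 and 6, which carry the 4 longest runs.

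The strands were balanced. Of the 13408 CHH sites 6761 were listed on the plus strand and 6647 on the minus strand, a plus share of 50.4% (49.6 to 51.3%). The plus share of single chromosomes ran from 48.2% on chromosome 2 (45.1 to 51.4%, 1012 sites) to 53.9% on chromosome 6 (49.6 to 58.1%, 549 sites). The interval of chromosome 10, at 52.7% (50.2 to 55.1%), was the only one of the 10 that left out an even split, and with neighbouring sites counted as independent these intervals are too narrow. The CHG list was at 50.96% plus and the CG list at 49.9%. Among the 327 bins with at least 20 CHH sites the median plus share was 50%, and the central 80% of these bins lay from 38.1 to 62.5%. The bin furthest from balance lay on chromosome 4 between 67 and 68 Mb, with 2 sites on the plus and 18 on the minus strand. The highest plus share was on chromosome 1 between 53 and 54 Mb, with 29 plus and 8 minus sites.

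Most listed CHH sites stood alone. The median distance from a CHH site to the nearest other CHH site was 6419 bp, with lower and upper quartiles of 1181 and 20149 bp (31 sites were the sole one on their scaffold and were left out of these distances). Within 100 bp, 1707 sites had another CHH site (12.7%, 12.2 to 13.3%), and 3142 (23.4%) had one within 1000 bp. Joined at gaps of up to 100 bp, the list fell into 12409 groups, of which 11701 were single sites (87.3% of all sites). For comparison, 48.9% of CHG sites and 44.98% of CG sites were single by the same rule, in lists that are longer by far. These 2 lists also hold both cytosines of many symmetric sites, which lowers their single shares. With the plus strand first, 10586 CG pairs were 1 bp apart and 1242 CHG pairs were 2 bp apart.

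Where CHH sites did lie together, they lay very close. The density of other CHH sites at 1 to 50 bp from a CHH site was 1.91 per kb, or 97.9 times the mean of the 10 chromosomes, 14.7 times at 51 to 100 bp, 5.20 times at 201 to 500 bp and still 2.16 times at 5001 to 10000 bp. This mean, 19.5 per Mb, includes the 5 runs, and 23.1 CHH sites per Mb were listed outside them. The ratios at long distances therefore include differences in CHH density between regions. Among the pairs on one strand, 96 were 1 bp apart, 53 were 2 bp, 62 were 3 bp and 84 were 4 bp apart, and no distance from 5 to 25 bp had more than 51. Clusters of 2 sites numbered 528, of 3 sites 120, of 4 sites 36 and of 5 or more 24. The 708 clusters spanned a median of 18.5 bp and at most 153 bp, which is less than the shortest DNA fragments of the libraries (200 to 300 bp). Sites of a cluster that lie on the same strand can therefore be read from the same molecules. The CHG clusters reached 1756 bp and 109 sites, and the CG clusters 971 bp and 63 sites. The 24 clusters of 5 or more held 1.10% of the CHH sites (0.927 to 1.29%), against 27.2% of the CHG and 20.1% of the CG sites in clusters of that size. The CHG and CG clusters count both cytosines of a symmetric site where both were listed.

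Neighbouring CHH sites were mostly on the same strand when close. Of 511 neighbouring pairs up to 10 bp apart 94.7% were on one strand (92.4 to 96.5%), of 367 pairs at 11 to 50 bp 81.7% (77.4 to 85.6%), and of 121 pairs at 51 to 100 bp 78.5% (70.1 to 85.5%). The share was 61.3% at 101 to 500 bp, 61.6% at 501 to 1000 bp, 54.8% at 1001 to 5000 bp and 50.9% (49.9 to 51.9%) for the 9722 pairs further apart. In all, 879 of 999 pairs within 100 bp were on one strand (88.0%, 85.8 to 89.9%). The other contexts gave like shares at 11 to 50 bp, at 83.7% for CHG and 81.8% for CG. Both contexts had lower shares at longer distances than at 11 to 50 bp, but not always lower than CHH. At 101 to 500 bp the shares were 65.8% (64.0 to 67.6%) for CHG and 58.0% (57.0 to 58.9%) for CG. The CHH share there was 61.3% (56.7 to 65.8%). At 501 to 1000 bp they were 57.6% (53.9 to 61.3%) for CHG and 51.4% (50.03 to 52.7%) for CG, and at 1001 to 5000 bp 51.4% (49.1 to 53.8%) and 49.7% (49.02 to 50.5%), against 54.8% (52.5 to 57.1%) for CHH. These differences between contexts were not tested. Up to 10 bp they were at 56.9% and 41.3%, where the lists also hold the symmetric partners of one site, 1242 CHG pairs that were 2 bp apart and 10586 CG pairs that were 1 bp apart with the plus strand first. The lists give no read counts, so the coverage of the strands could not be compared.

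**Figure D3:**
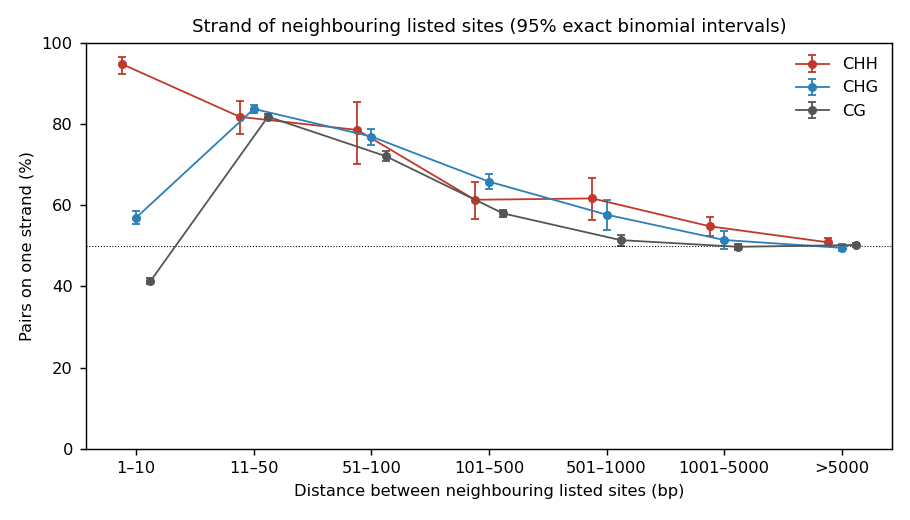
Share of neighbouring listed sites on one strand (%, y axis) by the distance between them (bp, x axis) for CHH (red), CHG (blue) and CG (grey), with exact 95% binomial intervals as bars and an even split as the dotted line. The CHH share was 94.7% up to 10 bp and 50.9% beyond 5000 bp, and the CHG and CG shares at the shortest distance include symmetric pairs.

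The largest clusters are given site by site, as they show this pattern directly. On chromosome 8 from 59564296 to 59564349, 9 CHH sites were all on the plus strand, at 0, 11, 18, 23, 30, 32, 35, 39 and 53 bp from the first, and no CHG or CG site was listed within 1000 bp. On chromosome 7 from 26847938 to 26847990, 8 sites on the minus strand, at 3, 6, 15, 16, 17, 36, 48 and 52 bp, followed 1 on the plus strand at 0 bp. A separate cluster of 8 sites lay nearby on chromosome 7, from 26842836 to 26842942, with every site on the minus strand. The sites of this cluster were at 0, 13, 14, 16, 48, 61, 94 and 106 bp, and 2 CHG sites were listed between them. Clusters with runs of 3 directly neighbouring cytosines, as at 15, 16 and 17 bp above, also occurred on chromosome 10 from 51190480 to 51190532, where the 6 minus-strand sites were at 0, 23, 24, 25, 49 and 52 bp.

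Of the other large clusters, the one on chromosome 3 from 69887896 to 69887948 held 7 sites on the plus strand, at 0, 9, 13, 32, 34, 36 and 52 bp, and 1 on the minus strand at 42 bp. On chromosome 5 the cluster from 3722520 to 3722564 held 7 plus-strand sites at 0, 8, 9, 22, 26, 27 and 44 bp, and that from 4085840 to 4085906 held 6 plus-strand sites at 0, 19, 32, 45, 48 and 66 bp. Both strands were listed in the cluster on chromosome 2 from 18313091 to 18313216, with plus-strand sites at 0, 14, 20 and 125 bp and minus-strand sites at 82, 109 and 117 bp. Chromosome 8 held 2 mixed clusters, 1 from 1829657 to 1829703 with 2 plus and 4 minus sites and 1 from 6277403 to 6277435 with 1 plus and 5 minus sites. The last of these contained 1 CG site. Of the 24 clusters of 5 or more, 12 were on one strand throughout, 20 had no CHG site and 15 no CG site within 1000 bp, and 13 had neither. Chromosomes 5 and 8 carried 5 each, chromosome 7 carried 4, and chromosome 6 none.

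Listed sites of the other contexts were seldom close to a CHH site. The nearest CHG site was at a median of 13070 bp and the nearest CG site at a median of 3438.5 bp, the CG list being the longer one. For 74.9% of the CHH sites a CG site was nearer than a CHG site, for 25.02% a CHG site was, and 4 sites had both at the same distance. The other 10 sites lay on scaffolds with neither. In all, 19 CHH sites had no CHG and 14 no CG site on their scaffold, and these were left out of the medians. A CHG site lay within 100 bp of 497 CHH sites (3.71%, 3.39 to 4.04%), and a CG site within 100 bp of 757 (5.65%, 5.26 to 6.05%). Within 1000 bp the shares were 10.7% for CHG and 22.4% for CG, and within 5000 bp 27.8% and 60.6%. In all, 1132 CHH sites (8.44%) had a CHG or CG site within 100 bp, and 122 (0.910%) had both. No listed site of any context lay within 100 bp of 10869 CHH sites (81.1%), within 1000 bp of 7477 (55.8%), or within 5000 bp of 2465 (18.4%). From the other side, 2.17% of CHG sites and 0.971% of CG sites had a CHH site within 100 bp.

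Relative to their own mean density over the 10 chromosomes, both other contexts were still more frequent near CHH sites. CHG sites at 1 to 50 bp from a CHH site were listed at 9.38 times their mean density over the chromosomes, at 101 to 200 bp at 3.38 times and at 5001 to 10000 bp at 1.34 times. CG sites were at 3.43, 2.00 and 1.24 times their mean at the same distances. These means include the 5 runs, where few CHH sites lie. Outside the runs CHG and CG sites were listed at 43.0 and 169.5 per Mb, against means of 40.0 and 151.0 per Mb. The ratios at long distances therefore include such differences between regions. The bases within 2 bp of a CHH site cannot carry every context, and no list of the cytosines that were read was at hand, so that these ratios were not set against the sequence.

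**Figure D4:**
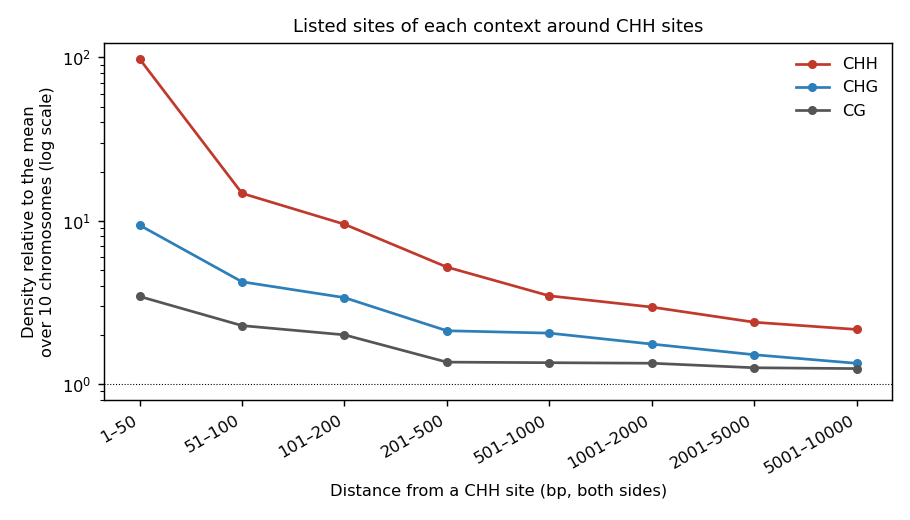
Density of listed CHH (red), CHG (blue) and CG (grey) sites by distance from a CHH site (bp, x axis), divided by the mean density of the same context over the 10 chromosomes (log y axis, dotted line at 1). At 1 to 50 bp the density was 97.9 times the mean for CHH, 9.38 times for CHG and 3.43 times for CG, and at 5001 to 10000 bp it was 2.16, 1.34 and 1.24 times.

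The distance to the other contexts varied with the chromosome. The median distance to the nearest CG site was 2633 to 2818 bp on chromosomes 1, 2, 3, 4 and 6 and 3736.5 to 4631 bp on chromosomes 5, 7, 8, 9 and 10. In the same division 6.92 to 8.01% of the CHH sites had a CG site within 100 bp on the first 5 of these chromosomes and 3.92 to 5.34% on the others. The first group is also the one where more CG sites were listed for each CHH site, at 9.55 to 12.9 against 3.83 to 6.34. For CHG the median distance was shortest on chromosome 9, at 9272 bp, which had the highest CHG density (57.3 per Mb), and longest on chromosome 6, at 17779 bp, which had the lowest (25.1 per Mb). The share of CHH sites with another CHH site within 100 bp was lowest on chromosomes 5 and 10, at 9.32 and 9.58%, the 2 chromosomes with the highest CHH density, and highest on chromosome 3, at 16.9%. Differences between chromosomes and between contexts were not tested, because each list is a single outcome of all 4 libraries and neighbouring sites are not independent.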

How the data were processed

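Bisulfite libraries of LP and SP roots were compared, 2 for each level. The authors trimmed reads (125 bp, paired ends) with Trim Galore, checked them with FastQC, aligned them with Bismark and tested LP against SP in methylKit. The sources used here do not state, for these reads, the tool versions, the genome build, the coverage minimum or the thresholds for listing a site. The 3 deposited lists hold the chromosome, position and strand of each listed cytosine, which were used, and the authors' methylation differences, p-values and q-values, which were not used. Positions are in bp as deposited. Depth per library is unknown from these lists.

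Bins, clusters and distances were computed with Python 3.11.15, numpy 2.4.6, pandas 2.3.3 and scipy 1.17.1, with functions tested on simulated sites. Bins covered 1 Mb, up to the highest position listed on each chromosome in any context. Clusters joined sites at gaps of up to 100 bp. Distances ignored strand unless stated. Intervals are exact Clopper-Pearson 95% intervals and cover counting error only. No test was run, since the lists pool the libraries. The regions named were to be the 10 densest bins and the 10 clusters with the most sites, the shorter first where sizes were equal. The 20 genes with the most CHH sites in the gene or up to 2 kb upstream, and genes of phosphate and DNA methylation lists, were also to be named. This was not done, because it was tied to a check of each listed position against the genome sequence, which was not used here. RNA-seq and ChIP-seq were not analysed here. The sites, tests and lists were chosen with earlier results of these data known.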

Additional observations from a re-analysis of the deposited data

How the results depend on the processing

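No paired analysis was possible because each list pools the 4 libraries, and for the same reason no library could be left out. The share of CHH sites in the densest 10% of bins was 27.4% with bins of 500 kb, 23.1% with bins of 2 Mb and 21.3% outside the 5 runs (chosen after the data were seen). The plus-strand share was 50.4% both with clusters counted once and on the chromosomes alone. With a window of 50 bp, 11.2% of CHH sites had a CHH site nearby, 2.77% a CHG site and 3.77% a CG site. With 500 bp the shares were 18.8%, 7.25% and 14.1%, and with 100 bp on the same strand 11.4%, 3.16% and 4.61%. Without sites in the runs, the CHG and CG shares were 3.70% and 5.66%. Only 59 CHH sites lay in the runs, so leaving them out could change these shares little. Adjacent pairs on one strand were 89.3% within 50 bp and 79.6% within 500 bp. Clusters of 5 or more held 0.783% of sites at gaps of up to 50 bp and 1.57% at up to 500 bp. Runs of bins with at most 1 or at most 5 CHH sites, also chosen after the data were seen, covered 77 and 113 Mb. At most 1 site a bin left 4 runs. Shares within genes were not run, for lack of the check against the genome sequence. The lists do not show which cytosines were covered, which limits every statement on absence.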
